A study of Gloeophyllum trabeum with 9 samples.

Results

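The gene models described here were higher on Japanese cedar than on glucose while their mean on pure cellulose stayed near the mean on glucose. They were 206 of the 11846 gene models of the brown rot fungus Gloeophyllum trabeum for which values were deposited. The members were chosen by these measured values. The mean on cedar had to be at least 3 times the mean on glucose and at least 2 normalized TPM, the mean on cellulose had to lie between 0.5 and 2 times the mean on glucose, and every cedar value had to exceed every cellulose and every glucose value. Gene models that the study lists in its tables of wood-degrading, metabolic and cytochrome P450 genes, and a small number named one by one, were left out beforehand. All 3 contrasts between the carbon sources were thus used to choose the members, and the differences between groups given for them below are descriptions without a test.

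RNA was taken from mycelium of strain NBRC6430 grown in Highley's medium on a rotary shaker, with wood flour of Japanese cedar, Cryptomeria japonica, as carbon source in 3 cultures harvested after 5 days, with microcrystalline cellulose in 3 cultures harvested after 5 days, and with glucose in 3 cultures harvested after 3 days. Both the wood flour and the cellulose had been nanofibrillated, that is, broken by water jets into very thin fibres, and each culture gave 1 stranded mRNA library. Cedar and cellulose cultures were of the same age, whereas carbon source and culture age cannot be told apart where either is set against glucose. The mycelium was sampled in bulk, so more hyphae expressing a gene and more transcript per hypha cannot be told apart, and no marker list for the mycelium was set.

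Brown rot fungi decompose the cellulose and hemicellulose of wood and leave a modified lignin behind. Softwood such as cedar presents, beside cellulose, hemicellulose, lignin and extractives that include terpenoids and phenolic compounds. Fungi are known to handle such small molecules with oxygenases, dehydrogenases, hydrolases and membrane transporters.

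Of the gene models, 822 had a mean on cedar of at least 3 times the mean on glucose and of at least 2 normalized TPM (TPM, transcript abundance corrected for transcript length and here rescaled between the libraries). In 371 of them every cedar value also exceeded every other value. On cellulose, 148 of these 371 were above 2 times their mean on glucose, 9 were below 0.5 times that mean and 214 fell in between. Among the 214, 8 were cytochrome P450 genes that the study lists, and without them 206 members remained.

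**Figure D1:**
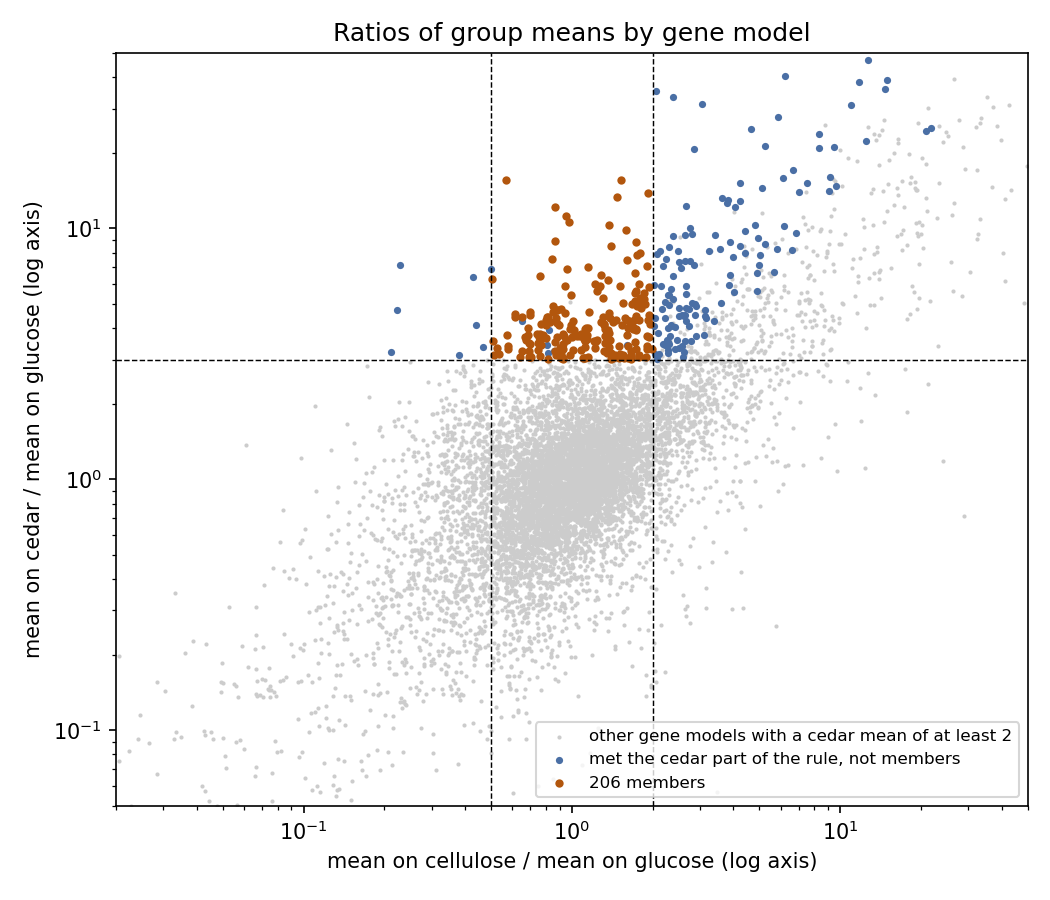
Ratio of the mean on cedar to the mean on glucose (vertical, log axis) against the ratio of the mean on cellulose to the mean on glucose (horizontal, log axis) for gene models with a cedar mean of at least 2 normalized TPM. Dashed lines mark the thresholds of 3, 0.5 and 2, and the 206 members sit in the box above 3 and between 0.5 and 2, while most other gene models that met the cedar part of the rule lie to the right of it. Gene models with more extreme ratios fall outside the axes, 18 of the 164 others that met the cedar part of the rule and 139 of the remaining ones.

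The mean on cedar of the members had a median of 9.56 normalized TPM and ran between 2.03 and 4335, and 63 members lay below 5 while 13 reached 100 or more. On cellulose their means had a median of 2.83, and on glucose of 2.50. The median of the cedar mean over the 10969 gene models above 0 in any library was 11.0. The ratio of cedar to glucose had a median of 3.80 and a highest value of 15.6. It lay between 3 and 4 in 115 members, between 4 and 5 in 48, between 5 and 10 in 35 and at 10 or more in 8. The ratio of cedar to cellulose, which the rule did not set directly, had a median of 3.57 and ran between 1.62 and 27.5. It was at least 10 in 7 members and below 2 in 16. In 113 members the lowest cedar value was at least 2 times the highest value of the other groups.

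The ratio of cellulose to glucose had a median of 1.15, and in 61 members it lay between 1.5 and 2. Every cellulose value was above every glucose value in 53 members (25.7%), against 28.1% of the gene models tested between these groups. Every cellulose value was below every glucose value in 15 members (7.28%), against 34.5% of the gene models tested. In the other 138 members the values of the cellulose and glucose libraries overlapped. Since the rule limits this ratio, nothing is read from these shares.

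The comparisons between carbon sources were fitted with limma across all gene models tested, and a gene model was called at a Benjamini-Hochberg adjusted p under 0.01 with a ratio of means of at least 2 or at most 0.5. On cedar against glucose 202 of the 206 members were called up, where 15.2% of the gene models tested were called up and 15.7% down. On cedar against cellulose 157 members were called up, where 10.7% of the gene models tested were called up and 5.95% down. Without cedar replicate 1 this number was 82, and without cedar replicate 3 it was 68. On cellulose against glucose no member was called, as the rule requires, where 10.4% of the gene models tested were called up and 13.9% down, although 10 members passed the adjusted p with higher and 1 with lower values on cellulose. Of the 49 members not called on cedar against cellulose, 16 had a ratio of cedar to cellulose under 2. The 49 include several members described below, among them the most abundant, Glotr_130750. Glotr_33719, Glotr_60735, Glotr_140446, Glotr_44016, Glotr_127955, Glotr_138370 and Glotr_112624 were likewise not called on cedar against cellulose. Since the members were chosen on these contrasts, the counts describe how clearly the libraries separated and are not evidence for the group.

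The most abundant members on cedar were headed by Glotr_130750, a gene model of 472 bases with no name held. Its values were 4694, 3568 and 4743 normalized TPM on cedar, 3153, 2494 and 1313 on cellulose and 1686, 1323 and 1274 on glucose. The lowest cedar value was only 1.13 times the highest cellulose value, cellulose replicate 1 was the highest of the other libraries, and the mean on cedar was 3.04 times that on glucose. This gene model alone made up 34.5% to 46.1% of the summed value of all members in the cedar libraries, 39.2% to 63.1% in the cellulose libraries and 48.0% to 54.6% in the glucose libraries. All 206 members together took 1.13% to 1.46% of the total of all gene models on cedar, 0.199% to 0.317% on cellulose and 0.342% to 0.409% on glucose. The totals of the cellulose libraries were larger than those of the glucose libraries, and the summed values of the members were 10189 to 10615 normalized TPM on cedar, 3348 to 4994 on cellulose and 2637 to 3087 on glucose, so the share was lower but the sum higher on cellulose than on glucose.

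Glotr_115740, likewise without a name held, had 606, 810 and 590 normalized TPM on cedar, 314, 251 and 150 on cellulose and 141, 115 and 152 on glucose. The cellulose values spread over a wide range, and their lowest lay among the glucose values. Glotr_33719, named as a hypothetical protein, had 541, 626 and 620 on cedar, 274, 201 and 441 on cellulose and 220, 201 and 131 on glucose. Here cellulose replicate 3 came nearest to the cedar libraries. Glotr_140446 had 189, 211 and 205 on cedar, 96.4, 113 and 106 on cellulose and 71.6, 62.7 and 48.1 on glucose. Its 3 groups did not overlap, with cellulose between cedar and glucose, and its ratio of cedar to cellulose of 1.92 was among those under 2.

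Glotr_73653 separated more widely, with 199, 216 and 207 normalized TPM on cedar, 67.0, 64.2 and 47.7 on cellulose and 50.5, 50.1 and 54.5 on glucose. Its cedar values lay close together, and cellulose and glucose overlapped. Glotr_124193 had 165, 205 and 187 on cedar, 11.6, 9.66 and 18.2 on cellulose and 13.8, 13.4 and 18.4 on glucose. Its lowest cedar value was 8.94 times the highest of all other values, and the ratio of means was 12.2 to glucose and 14.1 to cellulose. Glotr_77442 had 115, 137 and 117 on cedar, 19.7, 8.67 and 34.7 on cellulose and 25.3, 21.1 and 45.5 on glucose, so cellulose and glucose each varied by over 2 times between replicates while the cedar libraries were close together.

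In another 3 of the most abundant members a single cedar library stood out. Glotr_133204, a gene model of 386 bases, had 248, 652 and 298 normalized TPM on cedar, 64.5, 40.2 and 61.5 on cellulose and 33.6, 29.3 and 23.5 on glucose. Glotr_60735 had 130, 341 and 130 on cedar, 84.3, 39.7 and 78.1 on cellulose and 31.3, 30.3 and 47.3 on glucose. Glotr_123122 had 106, 280 and 104 on cedar, 44.1, 17.5 and 29.0 on cellulose and 33.4, 28.7 and 44.0 on glucose. In each of them cedar replicate 2 was the high library, at 2.39 times the mean of the other cedar libraries in Glotr_133204, 2.63 times in Glotr_60735 and 2.66 times in Glotr_123122. The remaining cedar libraries of these 3 gene models still lay above every cellulose and glucose value.

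**Figure D2:**
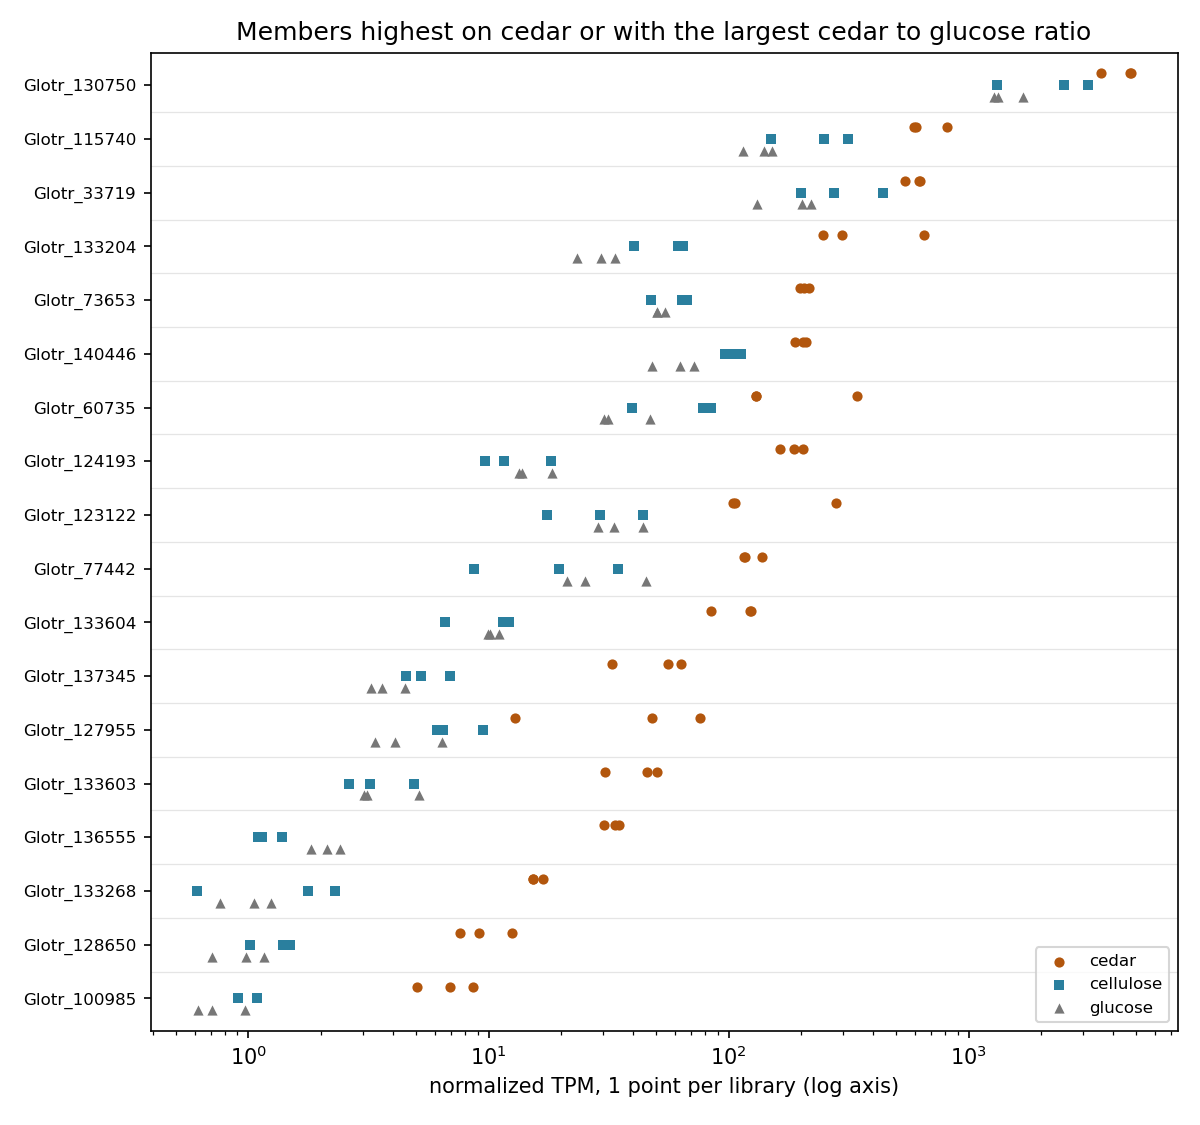
Normalized TPM (log axis) in each library of the 18 members that were among the 10 highest on cedar or the 10 with the largest ratio of cedar to glucose, ordered by their mean on cedar. Each row holds the cedar libraries as circles, the cellulose libraries as squares and the glucose libraries as triangles, with cedar to the right of both others in every row. Cellulose replicate 1 of Glotr_100985 was listed at 0 and is not drawn.

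The largest ratio of cedar to glucose was found for Glotr_136555, with 33.8, 30.4 and 35.0 normalized TPM on cedar, 1.09, 1.38 and 1.14 on cellulose and 1.83, 2.40 and 2.13 on glucose. The means stood in a ratio of 15.6 to glucose and of 27.5 to cellulose, and all cellulose values were below all glucose values. Glotr_133268 followed with 15.4, 15.3 and 16.9 on cedar, 0.613, 2.29 and 1.77 on cellulose and 1.06, 0.760 and 1.24 on glucose, a ratio of 15.5 to glucose. Its cellulose libraries lay on both sides of the glucose libraries. Glotr_133204, described above, had a ratio of 13.9 with all 3 cedar libraries and belonged to both sets of leading members, as did Glotr_124193.

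Glotr_137345 had 55.8, 32.8 and 63.1 normalized TPM on cedar, 4.54, 6.89 and 5.24 on cellulose and 3.24, 4.50 and 3.62 on glucose, a ratio of 13.4 to glucose. Cedar replicate 2 was its lowest cedar library. Glotr_127955 had 76.1, 13.0 and 47.8 on cedar, 6.11, 9.51 and 6.48 on cellulose and 4.10, 3.36 and 6.39 on glucose. In this gene model cedar replicate 2 was only 0.209 times the mean of the other cedar libraries and 1.36 times the highest cellulose value, so the ratio of 9.88 to glucose rests largely on cedar replicates 1 and 3. Without cedar replicate 1 the ratio was 6.58, and without cedar replicate 2 it was 13.4.

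Glotr_128650 had 9.17, 12.5 and 7.62 normalized TPM on cedar, 1.49, 1.01 and 1.40 on cellulose and 1.16, 0.978 and 0.707 on glucose. Glotr_100985 had 5.01, 6.90 and 8.61 on cedar, 0, 1.09 and 0.903 on cellulose and 0.971, 0.707 and 0.619 on glucose. Both were scarce off cedar, where cellulose and glucose values overlapped, and their ratios of cedar to glucose were 10.3 and 8.93. Glotr_100985 was 1 of 4 members listed at 0 in a cellulose or glucose library, and no member was listed at 0 in all glucose libraries. The remaining leading members, Glotr_133603 and Glotr_133604, are neighbours and are described with their stretch below.

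One further abundant member stood at the lower edge of the range on cellulose. Glotr_81874, with a gene of 5665 bases the longest among the members, had 118, 119 and 119 normalized TPM on cedar, 8.71, 9.39 and 10.5 on cellulose and 17.1, 18.7 and 21.0 on glucose. The 3 groups did not overlap, with cellulose below glucose at a ratio of 0.502, and cedar was 6.28 times glucose and 12.5 times cellulose. It was picked out for description after its values were seen, as the member nearest to the lower limit.

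Names were available for only a small share of the members. The part of the study's gene table used here holds the gene models with the lowest ID numbers, so each list by name below covers only a part of its family. This part names 1734 gene models, 14.6% of all, and 25 of the 206 members (12.1%) were among them. Of these, 15 had a function in the name or in the class of eukaryotic orthologous groups, 10 were hypothetical proteins, and for the other 181 members no name was held. The 15 are described by their roles, which are taken from the names and were not tested here.

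Enzymes that act on small molecules formed one set. Glotr_44016 is named an aldehyde dehydrogenase, an enzyme type that oxidizes aldehydes to carboxylic acids, and had 63.6, 116 and 61.2 normalized TPM on cedar, 36.7, 28.2 and 38.3 on cellulose and 21.0, 26.9 and 12.9 on glucose. The cedar libraries were the highest, with replicate 2 far above the others, and cellulose lay wholly above glucose. Glotr_30301 and Glotr_38668 carry the name of FAD/NAD(P)-binding proteins of the class of kynurenine 3-monooxygenase, flavin enzymes that add oxygen to aromatic rings.

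Glotr_30301 had 14.4, 20.0 and 17.0 on cedar, 1.92, 2.37 and 1.45 on cellulose and 2.38, 2.08 and 2.32 on glucose, a ratio of 7.57 to glucose and the largest among the 15 named members. Glotr_38668 had 5.76, 5.04 and 5.99 on cedar, 0.755, 0.751 and 1.87 on cellulose and 1.48, 2.01 and 1.69 on glucose. In both, cellulose and glucose overlapped and cedar stood clear of them. The other 21 gene models of the list of flavoproteins and FAD-binding oxidoreductases moved in both directions. Of these 21, 2 were called up on cedar against glucose and 3 on cedar against cellulose. Over the list, members included, 4 of 23 were called up and 4 down on cedar against glucose, 5 up and 1 down on cedar against cellulose, and 0 up and 4 down on cellulose against glucose. The median log2 difference of the list was 0.15, 0.37 and -0.21 in these comparisons, beside 0.04, 0.05 and -0.09 over all gene models tested.

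Another set was hydrolases. The amidase Glotr_31579, of a type that splits amides into acid and ammonia, had 15.7, 11.7 and 16.4 normalized TPM on cedar, 3.25, 3.46 and 2.46 on cellulose and 2.96, 3.87 and 3.58 on glucose. Glotr_24740, named as an alpha/beta-hydrolase of the carboxylesterase class, which splits esters, had 8.39, 11.6 and 10.002 on cedar, 3.32, 4.69 and 3.20 on cellulose and 2.32, 2.38 and 2.60 on glucose. Cellulose and glucose overlapped in the amidase, while the carboxylesterase had all 3 cellulose values above the glucose values. In the list of alpha/beta hydrolases, esterases and lipases 3 of 19 were called up and 0 down on cedar against glucose, 2 up and 2 down on cedar against cellulose, and 6 up and 2 down on cellulose against glucose. Its median log2 difference was 0.40, -0.07 and 0.47 in that order. The lists were matched by words in the names, and this one also caught Glotr_38410, a meiotic topoisomerase called in all 3 comparisons. Without it the counts were 2 of 18 up and 0 down, 2 up and 1 down, and 5 up and 2 down. With Glotr_38410 kept and the member Glotr_24740 left out, 2 were called up on cedar against glucose and 1 on cedar against cellulose.

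The acid protease Glotr_37409, of the aspartyl class that cuts proteins at low pH, was the least abundant on cedar of the 15 members with a function in the name, with 1.84, 1.88 and 2.80 normalized TPM on cedar, 0.782, 1.01 and 0.567 on cellulose and 0.470, 0.619 and 0.620 on glucose. Its cedar libraries were the highest, but all values were low. Of the 23 peptidases listed, 2 were called up and 5 down on cedar against glucose. On cedar against cellulose 2 were called up and 2 down. Without Glotr_37409, 1 was called up in each of these comparisons. On cellulose against glucose 2 were called up and 2 down, and the medians were 0.04, -0.19 and 0.07 in that order. Glotr_10964, of the class of ubiquitin carboxyl-terminal hydrolases that remove ubiquitin from proteins, had 8.02, 8.95 and 9.23 on cedar, 1.18, 1.62 and 1.49 on cellulose and 2.53, 2.24 and 3.61 on glucose. All its cellulose values were below the glucose values, and the ratio of cellulose to glucose was 0.512.

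A pair of transporters of the major facilitator superfamily, proteins that carry sugars, drugs and other small molecules across membranes, belonged to the group. Glotr_47548 had 34.0, 29.2 and 33.2 normalized TPM on cedar, 12.6, 13.3 and 13.2 on cellulose and 10.3, 10.04 and 9.49 on glucose. Glotr_45208 had 13.1, 10.4 and 12.3 on cedar, 3.08, 4.62 and 3.71 on cellulose and 2.90, 3.14 and 2.64 on glucose. The groups of Glotr_47548 did not overlap, with cellulose slightly above glucose, whereas cellulose and glucose overlapped in Glotr_45208. Of the 35 named transporters of this superfamily tested, members included, 7 were called up and 7 down on cedar against glucose. On cedar against cellulose 12 were called up and 1 down, and on cellulose against glucose 6 up and 11 down. Without the 2 members, 5 were called up on cedar against glucose and 10 on cedar against cellulose. The median log2 difference of the list was 0.23, 0.60 and -0.46. Most of those called up against cellulose were thus not members, among them Glotr_42573 with 4.71 on cedar, 1.55 on cellulose and 22.0 on glucose, which was chosen as an example after its values were seen.

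Signalling and regulatory proteins made up another set. Maf1, encoded by Glotr_44334, is known from yeast as a repressor of RNA polymerase III, and it had 37.0, 43.2 and 33.2 normalized TPM on cedar, 11.9, 8.98 and 12.6 on cellulose and 9.52, 9.03 and 7.10 on glucose. The kinase Glotr_14485, of the class of ribosomal protein S6 kinases, had 14.1, 17.99 and 17.1 on cedar, 5.33, 6.71 and 4.53 on cellulose and 4.07, 3.63 and 3.67 on glucose. Glotr_42833, placed in the MEKK class of kinases that in other eukaryotes act at the head of MAP kinase cascades, had 5.80, 4.21 and 7.36 on cedar, 1.68, 2.24 and 1.29 on cellulose and 0.592, 1.15 and 2.05 on glucose. Both are named only as partial kinase-like proteins, with short genes of 534 bases in Glotr_14485 and 393 bases in Glotr_42833. Whether either encodes a whole kinase was not tested. Cellulose and glucose overlapped in Maf1 and the MEKK-related kinase and not in Glotr_14485, where cellulose was above glucose. Of 52 gene models with a protein kinase name, 7 were called up and 4 down on cedar against glucose. The match by words also caught proteins that assemble or regulate kinases, among them Glotr_15331, called down on cedar against glucose. On cedar against cellulose 7 were called up and 0 down. Without the 2 members, 5 were called up in each of these comparisons. On cellulose against glucose 3 were called up and 4 down, and the medians were 0.04, -0.10 and -0.07 in that order.

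Proteins that modify or fold other proteins were the last set. Glotr_40670 belongs to the DHHC zinc-finger class, whose members attach palmitate to proteins, and had 24.4, 26.0 and 28.8 normalized TPM on cedar, 9.73, 11.1 and 13.7 on cellulose and 6.90, 8.54 and 9.34 on glucose. Glotr_42483, of the HSP70 superfamily of chaperones, had 5.20, 6.37 and 5.98 on cedar, 1.19, 1.36 and 1.83 on cellulose and 1.24, 1.56 and 1.63 on glucose. Glotr_41999, of the class of farnesyl cysteine carboxyl methyltransferases that cap prenylated proteins, had 2.84, 3.99 and 2.43 on cedar, 1.41, 0.833 and 1.20 on cellulose and 0.505, 0.903 and 0.745 on glucose. Of these 3, only the DHHC protein had all cellulose values above all glucose values. Of 11 gene models with a chaperone or heat shock name, heat shock transcription factors included, 1 was called up on cedar against glucose, this member, and 2 were called down. On cedar against cellulose 2 were called up, this member included, and 1 down, and on cellulose against glucose none, with medians of 0.10, -0.07 and -0.02. Of 29 gene models with a methyltransferase name, 3 were called up and 5 down on cedar against glucose. On cedar against cellulose 8 were called up and 1 down. Without Glotr_41999, the numbers called up were 2 and 7. On cellulose against glucose 0 were called up and 8 down, and the medians were -0.03, 0.52 and -0.67 in that order.

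**Figure D3:**
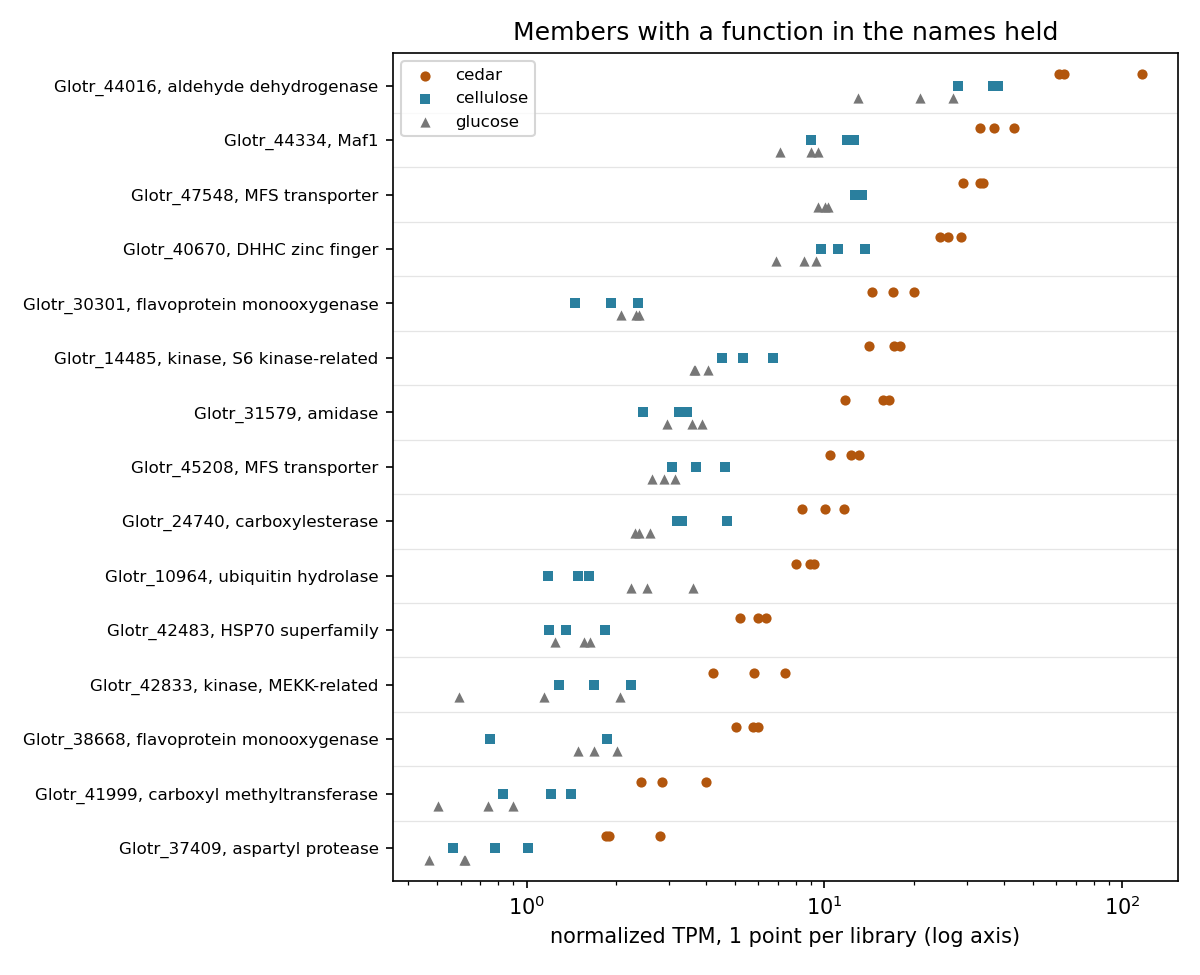
Normalized TPM (log axis) in each library of the 15 members with a function in the names held, ordered by their mean on cedar, with cedar libraries as circles, cellulose libraries as squares and glucose libraries as triangles. The aldehyde dehydrogenase is the most abundant, the flavoprotein monooxygenase Glotr_30301 shows the widest gap between cedar and both other groups, and the means on cellulose and glucose lie nearer to each other than to the mean on cedar in every row.

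Over all 1411 named gene models tested on cedar against glucose, 181 were called up, 156 of them not members, and 204 down. None of the gene models listed as transcription factors (21), glycoside hydrolases (14), peroxidases or catalases (5), hydrophobins (8), ribosomal proteins (21), glutathione S-transferases (5) or ABC transporters (2) was a member. The same held for NAD(P)-binding or short-chain dehydrogenases (16), GroES-like or alcohol dehydrogenases (11), aldo/keto reductases (9) and other transporters or aquaporins (13). As 25 of the 1734 named gene models were members, lists this short would hold few or none, and nothing is read from this. Cytochrome P450 genes were left out where the study lists them, so their absence from the members has no meaning.

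Beside the members stood the 8 P450 genes that met every numeric part of the rule. The most abundant, Glotr_140036, had 69.3, 56.6 and 71.5 normalized TPM on cedar, 4.20, 5.76 and 4.39 on cellulose and 8.59, 9.88 and 10.2 on glucose. All its cellulose values lay below the glucose values, at a ratio of 0.501, and the ratio of cedar to glucose was 6.88. The ratios of cedar to glucose of the other 7 ran between 3.17 (Glotr_45946) and 4.29 (Glotr_116311).

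The members' gene length in the RefSeq annotation had a median of 1293 bases in the 205 members matched, with quartiles of 813 and 1924, beside a median of 1528.5 bases with quartiles of 966 and 2290 over the 10566 matched gene models above 0 in any library. Normalized TPM is corrected for length, but the values of short transcripts rest on fewer reads, and the reads behind a single value are unknown.

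Members were placed along the genome by their order in the RefSeq annotation of assembly Glotr1_1, which was made from strain ATCC 11539 and not from the strain cultured. Of the 205 members placed, 47 (22.9%) had another member within 5 gene models on either side, beside 1682 of the other 11217 gene models placed (15.0%). Next to a member directly lay 12 members (5.85%) and 376 of the others (3.35%). The 12 formed 5 runs, 3 pairs and 2 runs of 3. These shares are given as a description, since neighbouring gene models are not independent of each other.

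The first run of 3 was Glotr_133603, Glotr_133604 and Glotr_118227, separated by 110 and 442 bases and spanning 4632 bases. Glotr_133603 had 45.5, 30.6 and 50.6 normalized TPM on cedar, 3.22, 4.91 and 2.63 on cellulose and 3.03, 3.10 and 5.13 on glucose. Glotr_133604, a short gene of 435 bases, had 124, 84.3 and 123 on cedar, 12.2, 11.5 and 6.58 on cellulose and 9.97, 10.1 and 11.0 on glucose. In both neighbours cedar replicate 2 was the lowest cedar library, cellulose and glucose overlapped, and the ratios of cedar to glucose were 11.2 and 10.6. Glotr_118227 had 19.0, 21.3 and 20.7 on cedar, 4.22, 4.06 and 5.48 on cellulose and 2.65, 1.69 and 3.49 on glucose. Here cedar replicate 2 was the highest, and cellulose lay above glucose.

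The stretch that begins with this run held 5 members among 9 gene models over 17452 bases. Next in order came Glotr_149060, which has no value in the table and whose gene overlaps the end of Glotr_118227, and then the member Glotr_133607 with 3.92, 3.00 and 4.95 normalized TPM on cedar, 0.978, 1.14 and 1.48 on cellulose and 1.03, 1.16 and 0.977 on glucose. The last member, Glotr_112624, had 57.0, 104 and 52.6 on cedar, 9.04, 2.06 and 46.0 on cellulose and 9.19, 6.64 and 14.2 on glucose. Its cellulose replicate 3 was far above the other cellulose libraries and close to the lowest cedar library, and it was not called on cedar against cellulose.

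The other gene models of the stretch differed in their pattern. Glotr_49952 had means of 139 on cedar, 45.9 on cellulose and 10.9 on glucose and was called up on cedar against glucose, and Glotr_49871, just beyond the last member, had 556, 54.5 and 17.8 and was called up on cedar against glucose and on cedar against cellulose. Both missed the group because their means on cellulose were 4.22 and 3.06 times those on glucose. Glotr_141342 had means of 15.1 on cedar, 16.9 on cellulose and 7.96 on glucose, and Glotr_9714 had 128, 228 and 123, so neither followed the members. Glotr_112622, on the other side of the first run, had 15.4 on cedar, 29.6 on cellulose and 85.7 on glucose and was called down on cedar against glucose.

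The second run of 3 was Glotr_44791, a hypothetical protein, with Glotr_78904 and Glotr_139911, separated by 114 and 73 bases within 3433 bases. Glotr_44791 had 21.0, 31.7 and 26.0 normalized TPM on cedar, 8.67, 9.81 and 11.1 on cellulose and 5.66, 5.14 and 5.60 on glucose. Glotr_78904 had 31.3, 53.1 and 40.6 on cedar, 13.9, 14.6 and 20.6 on cellulose and 9.28, 10.6 and 9.01 on glucose. Glotr_139911 had 29.9, 43.8 and 33.1 on cedar, 9.09, 9.71 and 14.5 on cellulose and 6.54, 6.53 and 6.22 on glucose. The 3 neighbours had nearly the same profile, with cedar replicate 2 the highest cedar library, cellulose replicate 3 the highest cellulose library and no overlap between groups. Their ratios of cedar to glucose were 4.80, 4.33 and 5.54, and those of cellulose to glucose were 1.80, 1.70 and 1.73. Cedar replicate 2 and cellulose replicate 3 also deviated together elsewhere. The log2 deviations of these libraries from the others of their groups correlated at 0.41 over the 9145 gene models with a cedar mean of at least 2. Over the members the correlation was 0.27. It counts joint falls as well as joint rises, so it cannot tell how often these libraries rose together outside these 3 neighbours. The gene model after them, Glotr_131188, had 9.08 on cedar, 5.52 on cellulose and 4.50 on glucose, a ratio of 2.02 to glucose.

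**Figure D4:**
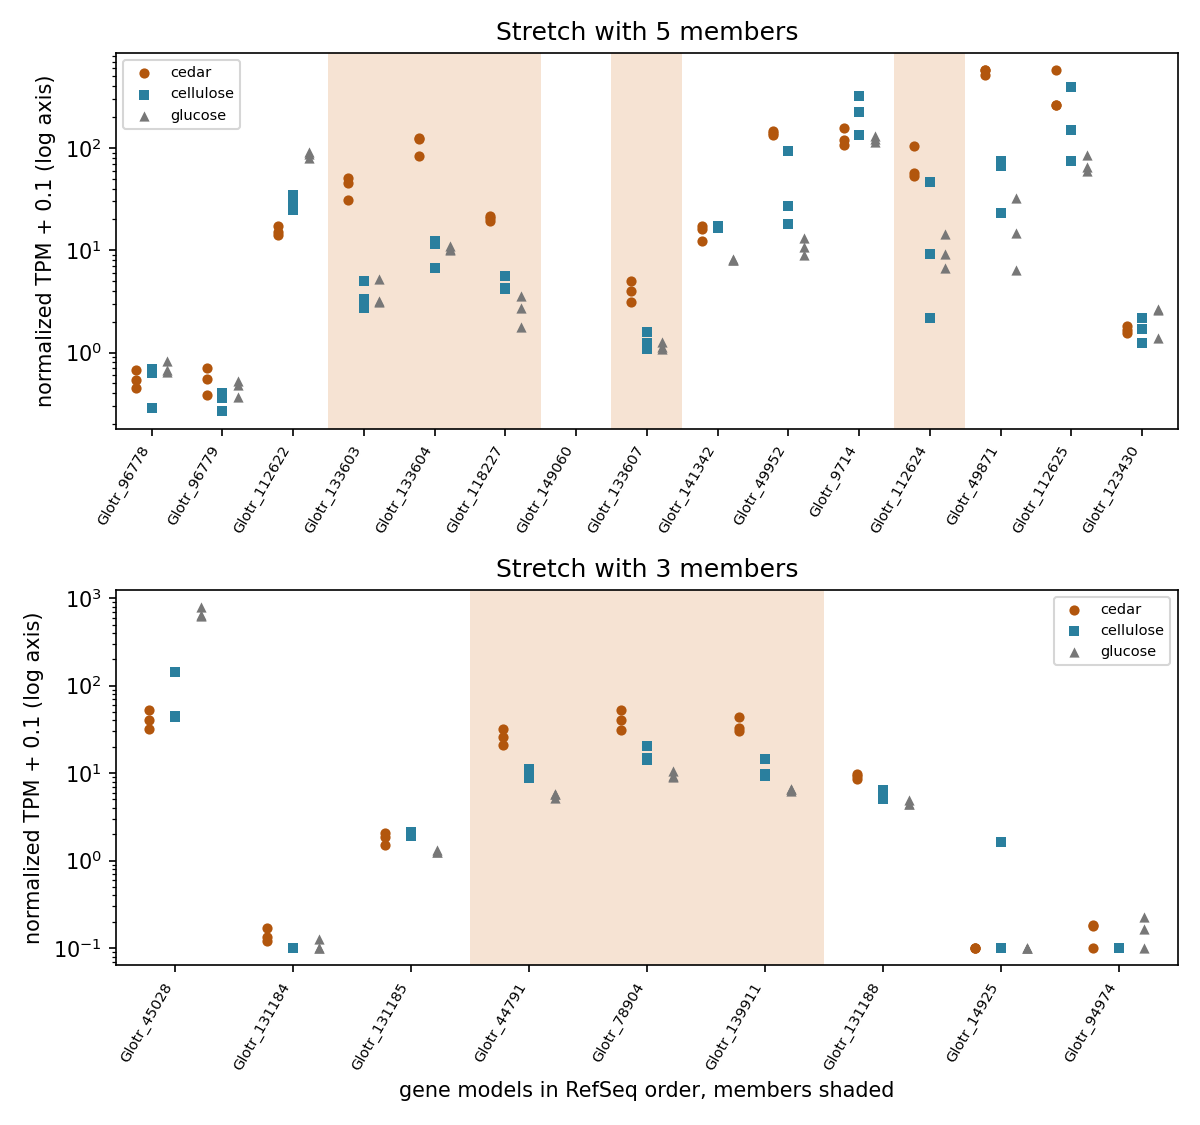
Normalized TPM plus 0.1 (log axis) in each library of the gene models along the stretch with 5 members (upper panel) and the stretch with 3 members (lower panel), each with 3 gene models on either side, in RefSeq order and with members shaded. Cedar libraries are circles, cellulose libraries squares and glucose libraries triangles, and Glotr_149060 has no value. The members of the lower panel share 1 profile. In the upper panel some gene models between and beside the members reach higher values on cellulose or glucose, and others beside them are low in all groups.

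The other runs were pairs. Glotr_138370, next to the leading member Glotr_128650, had 13.9, 32.3 and 13.7 normalized TPM on cedar, 4.51, 1.64 and 8.65 on cellulose and 3.64, 2.41 and 5.27 on glucose. Cedar replicate 2 was the highest cedar library in both gene models of this pair, and cellulose and glucose overlapped in both. Glotr_93796 had 6.78, 3.88 and 7.05 on cedar, 1.35, 0.614 and 0.102 on cellulose and 0.799, 1.43 and 0.501 on glucose, and its neighbour Glotr_76685 had 36.9, 43.5 and 33.7 on cedar, 16.9, 18.9 and 18.4 on cellulose and 11.4, 11.4 and 10.7 on glucose. They differed in which cedar library was highest. Glotr_95321 and Glotr_100927 had ratios of cedar to glucose of 8.85 and 5.14, with glucose values of at most 1.29.

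Gene models that lay next to a member without being one were compared with the rest. On cedar against glucose 72 of the 350 tested (20.6%) were called up, beside 13.4% of the other non-member gene models placed. The share was 11.8% beside 9.49% on cedar against cellulose, and 16.4% beside 10.4% on cellulose against glucose. Whether these shares differ beyond the dependence of neighbours on each other was not tested.

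Within the cedar group, the libraries did not share the members' high values evenly. Cedar replicate 3 held the highest cedar value of 118 members (57.3%), replicate 2 of 62 (30.1%) and replicate 1 of 26 (12.6%). Over the 9145 gene models with a cedar mean of at least 2 the shares were 28.7% for replicate 3, 40.2% for replicate 2 and 31.1% for replicate 1. Replicate 2 was the lowest cedar library for 108 members (52.4%), beside 45.9% over those gene models. The median log2 deviation of the members from the mean of the other cedar libraries was 0.17 in replicate 3, -0.12 in replicate 2 and -0.03 in replicate 1, against 0.02, -0.02 and 0.00 over those gene models. The differences were small for the typical member, with a median coefficient of variation on cedar of 16.1%, beside 11.2% over those gene models.

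Larger departures concerned few members. In cedar replicate 2, 6 members were at least 2 times and 5 at most 0.5 times the mean of the other cedar libraries. The 6 high ones were Glotr_123122, Glotr_60735, Glotr_126937, Glotr_133204, Glotr_138370 and Glotr_77731, and the 5 low ones were Glotr_127955, Glotr_129306, Glotr_129140, Glotr_76829 and Glotr_94933. Glotr_129306 had 9.92, 3.04 and 10.2 normalized TPM on cedar. Without cedar replicate 2, 224 gene models met the rule, of which 191 were members.

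On cellulose the members' values spread more widely in the median. Their coefficient of variation there had a median of 25.3%, beside 18.2% over the gene models with a cedar mean of at least 2, and on glucose the median was 18.4% beside 9.36%. Cellulose replicate 1 held the lowest cellulose value of 97 members (47.1%), beside 35.1% over those gene models. In replicate 1, 28 members were at most 0.5 times the mean of the other cellulose libraries, and in replicate 3, 21 members were at least 2 times that mean. The part of library quality, culture state or low abundance in these deviations was not tested.

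**Figure D5:**
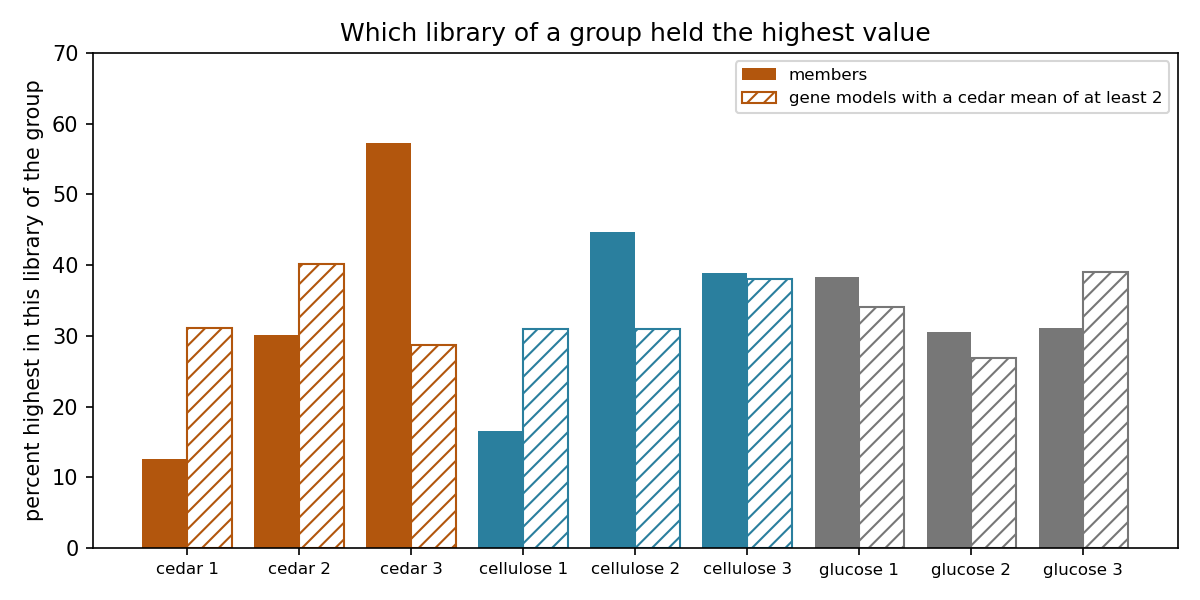
Share of gene models (percent, from 0) whose highest value within a group fell in the library named below the bars, for the 206 members (filled) and for the 9145 gene models with a cedar mean of at least 2 normalized TPM (hatched). Cedar bars come first, then cellulose and glucose, and cedar replicate 3 holds 57.3% of the members' highest cedar values against 28.7% over those gene models.

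The thresholds cut through a continuous range. At the ratio of cedar to glucose the members just inside were Glotr_136899 (3.01) and Glotr_117368 (3.01), and just outside lay Glotr_130380 (2.99) and Glotr_94209 (2.99). At the minimum on cedar they were Glotr_91313 and Glotr_25075 (both 2.03 normalized TPM), with Glotr_12858 (1.88) and Glotr_92875 (1.83) outside. At the lower limit of the ratio of cellulose to glucose, Glotr_81874 (0.502) and Glotr_90461 (0.509) were inside and Glotr_77591 (0.466) and Glotr_132258 (0.438) outside.

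At the upper limit of that ratio Glotr_71874 (1.997) and Glotr_116290 (1.95) were inside, and Glotr_90316 (2.03) and Glotr_107956 (2.03) outside. For the separation of the groups, the lowest cedar value was 1.02 times the highest other value in Glotr_129140 and 1.03 times in Glotr_93683, both inside, and 0.944 times in Glotr_131201 and 0.941 times in Glotr_129385, both outside. Gene models on either side of a limit thus differed little in the quantity it sets, while their levels could differ widely. At the ratio of cedar to glucose, for example, the mean on cedar was 51.0 in Glotr_136899 and 6.37 in Glotr_130380. With the minimum ratio of cedar to glucose at 2 the rule gave 509 gene models, and at 4 it gave 91.

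The range set for cellulose depends on how the libraries are scaled. The deposited values of the cellulose libraries sum to more than those of the other groups, and when every library was brought to the same total, the median ratio of cellulose to glucose of the members became 0.511 and that of cedar to cellulose 7.14, while the ratio of cedar to glucose was 3.37. Under that scaling 237 gene models met the rule, of which 81 were members. With median-of-ratios scaling 193 gene models met it, all of them members, and with quantile normalization 198, of which 142 were members. The means of all 206 members were higher on cedar than on glucose and on cellulose under each of these scalings. Since the rule chose the members for higher values on cedar in the same libraries, this is a description and no independent support. The median ratio of cellulose to glucose of the members was 1.20 with median-of-ratios scaling and 1.48 with quantile normalization.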

How the data were processed

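RNA-seq of 9 libraries was analysed, 3 each from cedar, cellulose and glucose cultures. The authors pseudoaligned the stranded paired-end reads to the gene models of Glotr1_1 with Kallisto 0.44.0 and normalized TPM between libraries with Sleuth 0.29.0 (versions per the submitters' processing notes). The deposited signal values are these normalized TPM. Their totals differ between libraries (678148 to 1680448), no read counts per gene come with them, and the depth behind a value is unknown. Kallisto divides reads shared by near-identical gene models by estimation, so values of such copies are uncertain.

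Group ratios were computed on the deposited values with Python 3.11.15, pandas 2.3.3 and NumPy 2.4.6, and figures drawn with matplotlib 3.10.9. Comparisons used limma 3.58.1 in R 4.3.3 (lmFit, then eBayes with trended variance), applied to log2(value + 0.5). A gene model entered where 3 or more of the 6 libraries compared reached 0.1, with Benjamini-Hochberg adjustment over all gene models tested, and were tested on simulated data. The log2 differences understate changes of low genes. The design had assumed TPM with a fixed total, and the same test was kept for the rescaled values. The paper calls the replicates biological. The p-values set the difference between groups against the spread between these replicates, with variance information shared across gene models.

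The members and the 24 lists by product name were chosen with earlier results of these data known. Gene models named were the 10 highest on cedar, the 10 with the largest ratio to glucose, up to 4 members of each list, members adjacent to each other, and 2 on each side of each threshold, and members with a function in their name were added. Names came from the portion of the study's gene table held, which also holds the authors' own comparisons, not used here. Gene order and length came from RefSeq, in which 11422 gene models matched by locus tag, and a start below the preceding one was taken to begin a new scaffold. Alternatives changed the added value, the filter, the scaling, the trend, the samples in a fit, a replicate block, the limits of the rule, and the libraries, left out one by one.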

Additional observations from a re-analysis of the deposited data

How the results depend on the processing

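The number of members moved by over 1.5 times only where the limits of the rule themselves were moved, among the alternatives tried. It was 509 and 91 with a ratio of cedar to glucose of at least 2 and 4, 99 with a cedar mean of at least 10, and 130 with a cellulose range of 0.67 to 1.5, against 206. With 1 library left out it ran between 180 and 225, and 110 of the 206 members met the rule in all 9 such cases. Which gene models met the rule changed more than their number did. Only 42 of the 206 members met it in all 3 scalings, and 138 in both median-of-ratios scaling and quantile normalization. The share of members with another member nearby was 5.85% for direct neighbours and 37.6% within 10 gene models, against 22.9% within 5. The gene models called up on cedar against cellulose numbered 1124, and 4897 with the same total for each library, 707 with quantile normalization, 285 with the replicate block, and between 287 and 1232 with 1 library left out, namely 382 without cedar replicate 1, 707 without cedar replicate 2, 287 without cedar replicate 3 and 747 without cellulose replicate 1. On cellulose against glucose the same total gave 353 up and 5934 down, against 1093 and 1463, since it lowers the median log2 difference of all gene models by 1.01 (-1.09 against -0.09). On cedar against cellulose it gave 4897 up and 141 down, against 1124 and 625, and quantile normalization gave 707 up and 622 down. The up calls on cedar against glucose ran between 1413 and 1683 with 1 library left out. On cellulose against glucose they ran between 798 and 1254. The causes were not tested.

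The replicate numbers were not used to pair the libraries in the main fits. Across gene models, the deviations of same-numbered libraries from their group means correlated at -0.40 to 0.19 on cedar against cellulose. The range was -0.14 to 0.17 on cedar against glucose and 0.02 to 0.13 on cellulose against glucose. Not every library correlated best with its own number. Since deviations from a group mean cancel out within the group, these correlations cannot decide whether the numbers mark a pairing. The replicate block moved the members called on cedar against cellulose to 72, against 157, and those called on cedar against glucose not at all (202). Its up calls over all gene models were 1566 on cedar against glucose and 1047 on cellulose against glucose. Of 378 recomputed ratios of cedar to glucose for 42 members named in the text, none fell below 1, the lowest was 2.66, and 10 moved beyond the spread between replicates, all under other scalings. With 1 library left out no ratio could fall below 1, since the rule sets every cedar value above every glucose value. These ratios are therefore a description and no support for the group. Related gene models by protein identity and motifs before the start were not run, because no protein or promoter sequences were used here. The number of 3 libraries a group and the missing read counts per gene limit what can be said of members near the thresholds.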
